A study of Mus musculus with 6 samples.

Results

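The genes of BiP (Hspa5), GRP94 (Hsp90b1) and 8 of their co-chaperones in the endoplasmic reticulum (ER) were followed in the ear skin of mice with and without Ufl1 in the keratin 14 lineage. The 10 members were chosen by gene name from 54532 genes in the deposited count table, and all 10 were found and passed the filter on low counts that left 17318 genes for testing. The control group held 3 libraries from mice labelled Ufl1f/+ or Ufl1f/f, with no Cre named, and the cKO group held 3 libraries from mice labelled Ufl1f/f KRT14Cre/+. All mice were 3 months old and every control therefore also carried at least 1 floxed Ufl1 allele. KRT14Cre acts in basal keratinocytes and in the epithelial cells derived from them, while the whole ear also holds fibroblasts, melanocytes, vessels, muscle, cartilage and immune cells, in which Ufl1 was not measured separately. Since Cre was present in the cKO only, its own effects cannot be told apart from those of losing Ufl1. The labels do not state that each library came from a separate animal, and the p-values reflect only how these samples varied, which may be technical.

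BiP is the HSP70 chaperone of the ER lumen, and it binds unfolded stretches of newly made secretory and membrane proteins in a cycle driven by ATP. J-domain proteins (Dnajb9, Dnajb11, Dnajc3 and Dnajc10) bring clients and start ATP hydrolysis, exchange factors (Hyou1 and Sil1) release ADP so that the client is let go, Manf slows that release, and Sdf2l1 works in a complex with Dnajb11. GRP94 is the HSP90 chaperone of the ER, which takes over some clients at a later stage of folding. In the unfolded protein response the sensors ATF6, IRE1 and PERK respond to unfolded protein in the ER, and ATF6 and XBP1, the factor made active by IRE1, drive many of these chaperone genes through the ER stress response element (ERSE). Ufl1 is the E3 ligase that attaches UFM1 to proteins, among them ribosomes docked at the ER.

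The promoters are shown first because the members differed in whether they carry that element. RefSeq promoter windows (build GRCm38.p6, 250 bases before to 50 bases after the start site) were matched by symbol for 7 of the 10 members; Hyou1, Sil1 and Manf are named here without one. Both strands of each window were searched for the ERSE (CCAAT and CCACG with 9 bases between), for ERSE-II (ATTGG and CCACG with 1 base between) and for the core of the unfolded protein response element (UPRE; TGACGTG). The ERSE occurred in 39 of 32851 mouse windows of the same length (0.119%), ERSE-II in 12 (0.0365%) and the UPRE core in 661 (2.01%). Hspa5 held an ERSE 65 bases and a UPRE core 157 bases upstream of the start (first base of the match), Hsp90b1 held an ERSE at 212 bases and one on the other strand at 107 bases upstream, and Dnajc3 held an ERSE at 105 bases upstream. Dnajb11 held an ERSE-II that began 7 bases downstream of the start. No match overlapped another in these windows, although ERSE and ERSE-II share the letters CCACG. No match was found in the windows of Dnajb9, Dnajc10 and Sdf2l1, which says only that these letters are not in these windows. The 250 bases before the start are given below, 5′ to 3′ on the gene's strand, for the 3 members with an ERSE and for Sdf2l1, the member with the highest fold change, with the fixed letters of each match in capitals. They cover chr2:34771840-34772089 (+ strand), chr10:86705445-86705694 (- strand), chr14:118937682-118937931 (+ strand) and chr16:17132384-17132633 (- strand), in that order.
Hspa5: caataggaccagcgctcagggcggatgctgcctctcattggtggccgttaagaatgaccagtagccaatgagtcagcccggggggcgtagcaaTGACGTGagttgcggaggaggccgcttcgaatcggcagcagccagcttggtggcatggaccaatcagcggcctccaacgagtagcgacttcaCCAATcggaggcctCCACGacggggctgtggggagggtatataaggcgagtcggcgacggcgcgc
Hsp90b1: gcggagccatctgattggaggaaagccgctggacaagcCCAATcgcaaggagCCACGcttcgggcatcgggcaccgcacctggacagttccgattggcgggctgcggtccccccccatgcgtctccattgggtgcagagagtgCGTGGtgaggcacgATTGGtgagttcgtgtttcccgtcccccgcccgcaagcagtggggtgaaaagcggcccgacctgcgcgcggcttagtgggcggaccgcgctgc
Dnajc3: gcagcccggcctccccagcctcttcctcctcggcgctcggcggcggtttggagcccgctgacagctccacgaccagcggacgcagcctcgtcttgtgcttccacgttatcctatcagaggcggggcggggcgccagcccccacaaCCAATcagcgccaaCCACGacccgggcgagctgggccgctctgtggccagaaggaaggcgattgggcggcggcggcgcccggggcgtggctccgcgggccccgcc
Sdf2l1: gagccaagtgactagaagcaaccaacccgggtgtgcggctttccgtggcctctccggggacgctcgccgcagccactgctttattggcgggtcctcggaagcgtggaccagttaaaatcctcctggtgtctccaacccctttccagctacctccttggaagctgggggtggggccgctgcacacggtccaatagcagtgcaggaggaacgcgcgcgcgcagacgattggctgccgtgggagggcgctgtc

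**Figure D1:**
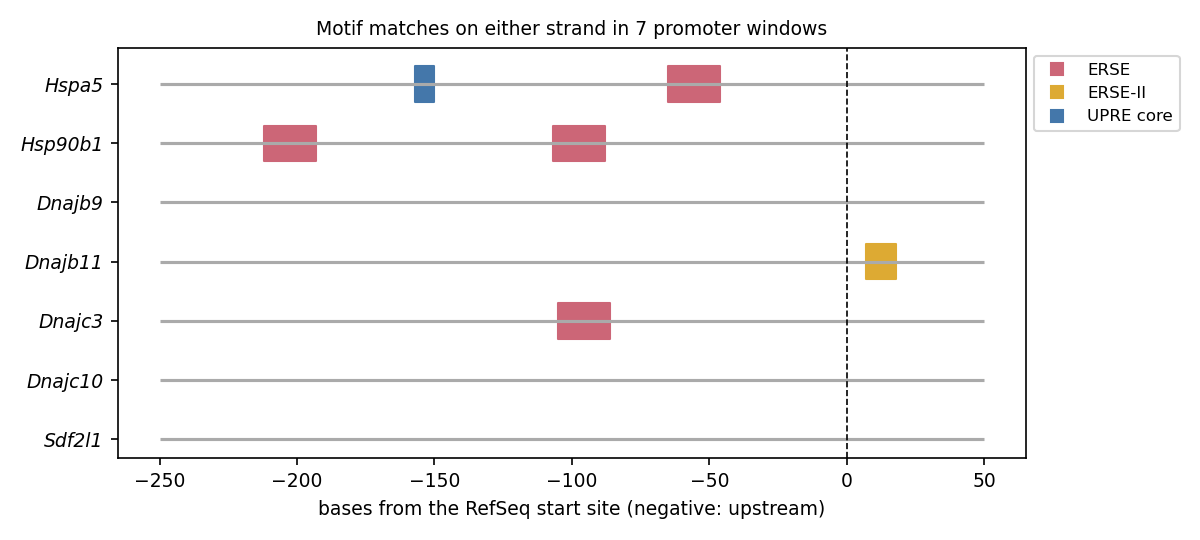
Motif matches in the RefSeq promoter windows of 7 members, drawn as distance in bases from the start site (dashed line; negative is upstream); bars mark ERSE, ERSE-II and UPRE core matches on either strand. Hspa5, Hsp90b1 and Dnajc3 hold an ERSE upstream of the start, Dnajb11 an ERSE-II just after it, and Dnajb9, Dnajc10 and Sdf2l1 none of the 3 motifs.

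Total counts ranged from 17256339 to 20776539 per library. The mitochondrial share of counts was 2.28% to 2.97% except in control 1, where it was 4.59%. Ufl1 itself was at 46.1 to 57.9 CPM (counts scaled to a common library size, by TMM) in the controls and at 34.9 to 38.8 CPM in the cKO, so every cKO library was below every control (log2 fold change -0.47, SE 0.14). For Ufl1 the adjusted p of the edgeR quasi-likelihood test was 0.778. The count covers the whole gene and all cells of the ear, so exons outside the floxed part and cells without Cre contribute to it. All 7 keratinocyte markers were measured in every library, with summed levels of 6532 to 15437 CPM in the controls and 9366 to 12682 CPM in the cKO. Of these 7, 4 had a log2 fold change above 0. For 0 of them was every cKO library above every control, and for 1, Krt15, every cKO library was below. Krt15 was at a mean of 850 CPM in the controls and 278 CPM in the cKO (log2 fold change -1.61, SE 0.41). Over all genes tested these shares were 5.73% above and 4.81% below.

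The 10 members fell into 6 that were higher in every cKO library than in any control and 4 whose groups overlapped. The first 6 were Hspa5, Hsp90b1, Hyou1, Sdf2l1, Manf and Dnajb11, with fold changes from 1.33 (Dnajb11) to 2.82 (Sdf2l1), and the other 4 were Sil1, Dnajb9, Dnajc3 and Dnajc10, with fold changes from 1.03 to 1.15. Of all 17318 genes tested, 5.73% had every cKO library above every control and 4.81% had every cKO library below. All 10 members had a log2 fold change above 0, next to 47.8% of all genes, and their median was 0.59 next to -0.01 over all genes.

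With edgeR (quasi-likelihood test, Benjamini-Hochberg adjustment over 17318 genes, threshold 0.05) 0 of the 10 members passed, where 0.0115% of all genes were called higher and 0.00577% lower. Before adjustment (p under 0.05) the test gave 6 members higher and 0 lower, next to 3.38% and 1.95% of all genes, and these 6 were the members whose groups did not overlap. DESeq2 on the same counts called 5 members higher (Hspa5, Hsp90b1, Hyou1, Sdf2l1 and Manf) and 0 lower, next to 0.282% and 0.102% of the genes it adjusted, and 6 members were higher at an unadjusted p under 0.05. By the adjusted p-values in the authors' deposited table, 5 members were higher and 0 lower, next to 0.204% and 0.0738% of the 28469 genes with a p-value there. For the members, the authors' log2 fold changes and those of DESeq2 here were nearly identical, as for Hspa5 (1.15164 in both) and Manf (0.840852 in both). The authors' calls are therefore not evidence separate from those of DESeq2. Limma-voom called 0 members, where 0 of all genes were called higher and 0 lower. Limma-voom with quality weights called 5 members, next to 19 of all genes higher and 7 lower. Each gave 6 members at an unadjusted p under 0.05. The share of all genes at that unadjusted threshold is not given here for DESeq2 or limma-voom. In a comparison added after seeing the data, DESeq2 called 5 members without control 1 or control 2, 4 without cKO 2, and 2 without control 3, cKO 1 or cKO 3. The share of all genes called is not given here for these runs. Hspa5 and Sdf2l1 were called by DESeq2 in each of these 6 runs, with adjusted p-values of at most 7.9e-06 for Hspa5 and of at most 0.00477 for Sdf2l1.

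**Figure D2:**
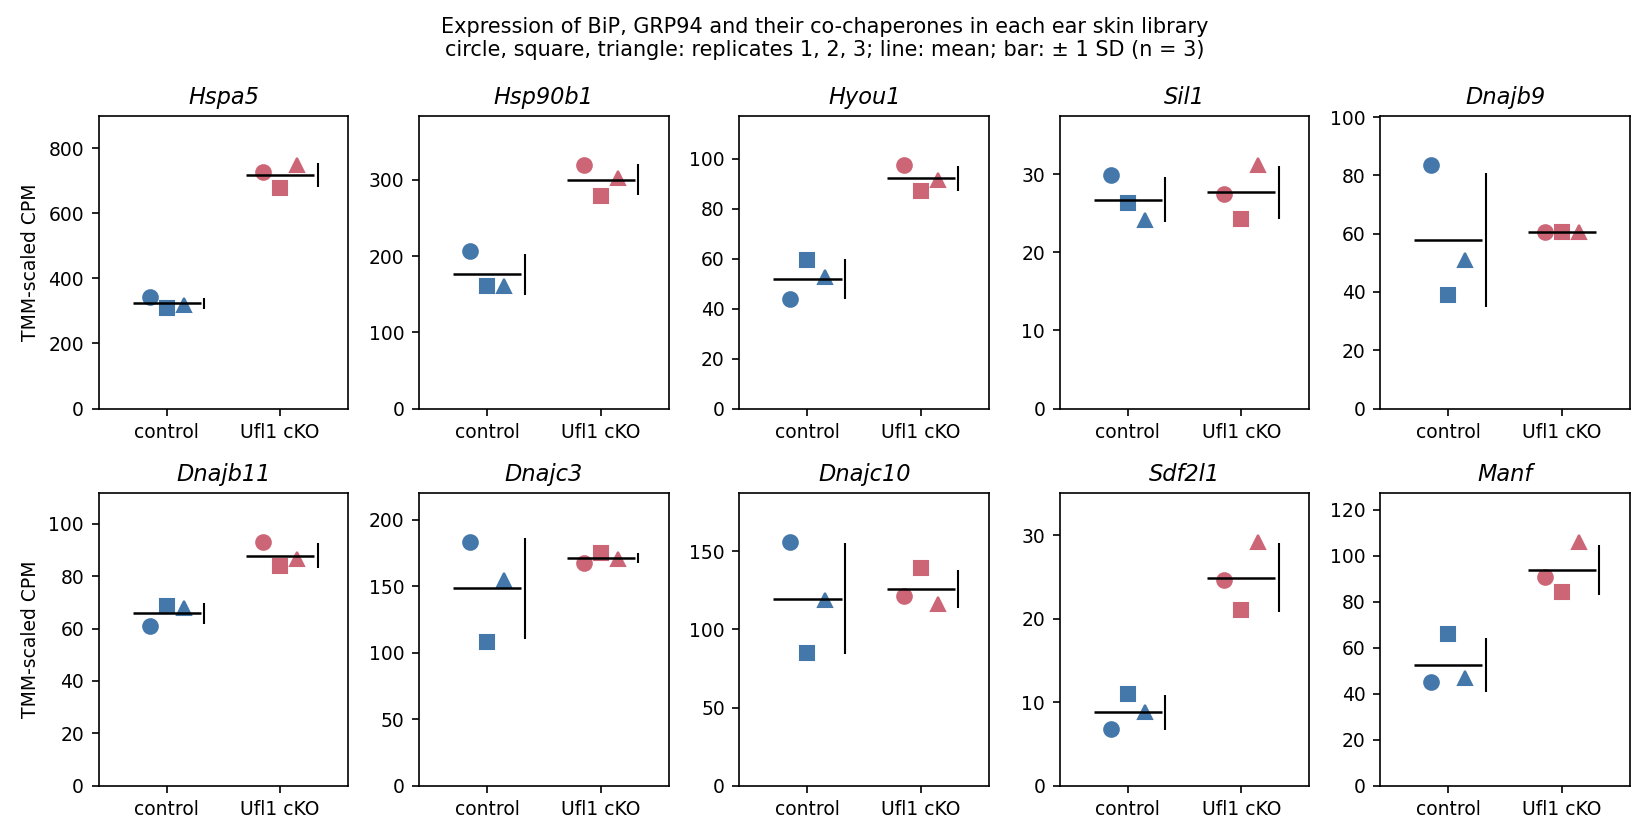
TMM-scaled CPM of each of the 10 genes in the 3 control (blue) and 3 Ufl1 cKO (red) libraries, with the mean (line) and SD (bar, n = 3); each panel starts at 0 and has its own scale. In Hspa5, Hsp90b1, Hyou1, Dnajb11, Sdf2l1 and Manf the red points lie above all blue points, while in Dnajb9, Dnajc3 and Dnajc10 the cKO points lie between the highest and lowest control.

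Hspa5 encodes BiP (ENSMUSG00000026864; chromosome 2, 34771970 to 34777547, mm10). It was at 343, 310 and 318 CPM in controls 1, 2 and 3 against 727, 678 and 748 CPM in cKO 1, 2 and 3. The groups were far apart relative to their spread, which was 5.28% of the mean in the controls and 5.05% in the cKO (SD, n = 3 each). The log2 fold change was 1.15 with a 95% interval of 0.81 to 1.49, a 2.22-fold higher level, and the adjusted p in edgeR was 0.105. DESeq2 gave an adjusted p of 1.3e-11. By mean FPKM (per length of gene and size of library, from the deposited table) Hspa5 went from place 606 to place 266 among the 17318 genes. By unadjusted p in edgeR it held place 9.

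Hsp90b1 encodes GRP94, which folds integrins, Toll-like receptors and other membrane proteins (ENSMUSG00000020048; chromosome 10, 86690209 to 86705509). Its levels were 207, 161 and 160.5 CPM in controls 1, 2 and 3 against 320, 279 and 303 CPM in cKO 1, 2 and 3. Control 1 was the highest control, and the lowest cKO library still lay 1.35-fold above it. The log2 fold change was 0.77 (95% interval 0.41 to 1.13), and the adjusted p was 0.464 (edgeR) or 0.00725 (DESeq2). Without control 3, cKO 1 or cKO 3 the DESeq2 call was lost (adjusted p = 0.141 to 0.405). A transcribed pseudogene (1810014B01Rik, 70 to 156 counts per library) overlaps its end on the other strand, next to at least 3126 counts for Hsp90b1. Without a stated strand setting, reads in the overlap cannot be assigned with certainty.

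The exchange factors differed from each other. Hyou1 encodes GRP170, a large HSP70-like protein that releases ADP from BiP and also holds unfolded chains itself (ENSMUSG00000032115; chromosome 9, 44379490 to 44392369). It was at 43.8, 59.5 and 52.6 CPM in controls 1, 2 and 3 against 97.6, 87.3 and 91.8 CPM in cKO 1, 2 and 3. No cKO library came near the controls, and the log2 fold change was 0.83 (95% interval 0.49 to 1.16; adjusted p = 0.309 in edgeR and 0.00304 in DESeq2). DESeq2 lost this call without the same 3 libraries (adjusted p = 0.0840 to 0.2495). Sil1 encodes the other exchange factor, which is not related to HSP70 (ENSMUSG00000024357). It was at 29.8, 26.2 and 24.1 CPM in controls 1, 2 and 3 against 27.5, 24.3 and 31.2 CPM in cKO 1, 2 and 3. The groups overlapped, with a log2 fold change of 0.05 and a 95% interval of -0.31 to 0.41, which leaves room for a 1.33-fold higher or a 0.806-fold level. The FPKM of Hyou1 per FPKM of Sil1 was 0.344, 0.532 and 0.511 in controls 1, 2 and 3 against 0.833, 0.841 and 0.690 in cKO 1 to 3 (exact two-sided permutation test, p = 0.1, the smallest that 3 against 3 allow).

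Among the J-domain members, Dnajb11 was separated between the groups and the other 3 were not. Dnajb11 encodes ERdj3, a soluble J-protein that binds clients directly and hands them to BiP (ENSMUSG00000004460; chromosome 16, 22857845 to 22879634). It was at 61.1, 68.6 and 67.7 CPM in controls 1, 2 and 3 against 93.0, 83.7 and 86.7 CPM in cKO 1, 2 and 3. This was the least separated of the 6 higher members, with a log2 fold change of 0.42 (95% interval 0.15 to 0.69; adjusted p = 0.735 in edgeR and 0.441 in DESeq2).

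Dnajb9 encodes ERdj4, which serves ER-associated degradation and holds the sensor IRE1 to BiP (ENSMUSG00000014905; chromosome 12, 44205559 to 44210326). It was at 83.6, 39.1 and 50.8 CPM in controls 1, 2 and 3 against 60.5, 60.6 and 60.5 CPM in cKO 1, 2 and 3. The cKO libraries were almost equal and lay inside the control range, whose highest library was 2.14 times its lowest. Its log2 fold change was 0.07 (95% interval -0.52 to 0.65), and it was 0.42 without control 1, -0.15 without control 2 and -0.02 without control 3. Dnajc3 encodes p58IPK, a J-protein that binds clients through TPR repeats and is also known as an inhibitor of PERK (ENSMUSG00000022136; chromosome 14, 118937976 to 118981697). It was at 183, 108 and 155 CPM in controls 1, 2 and 3 against 167, 175 and 171 CPM in cKO 1, 2 and 3. Control 1 was above all cKO libraries and the other 2 controls below them, with a log2 fold change of 0.20 (95% interval -0.24 to 0.65; 0.38 without control 1 and 0.02 without control 2).

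Dnajc10 encodes ERdj5, a J-protein with thioredoxin domains that reduces disulfides of proteins bound for degradation (ENSMUSG00000027006; chromosome 2, 80315466 to 80354043). It was at 156, 84.6 and 119 CPM in controls 1, 2 and 3 against 121, 139 and 116 CPM in cKO 1, 2 and 3. The groups overlapped over the whole cKO range, and the log2 fold change was 0.07 (95% interval -0.43 to 0.57; 0.30 without control 1, -0.13 without control 2 and -0.01 without cKO 2). In edgeR the adjusted p was 0.997 for Dnajb9, Dnajc3, Dnajc10 and Sil1, and in DESeq2 it was 0.9999. The upper ends of their 95% intervals were 1.33-fold for Sil1, 1.48-fold for Dnajc10 and 1.57-fold for Dnajb9 and Dnajc3. A change of the size of Dnajb11 (1.33-fold) thus lay inside the intervals of Dnajc10, Dnajb9 and Dnajc3 and at the edge of that of Sil1.

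Dnajb9, Dnajc3 and Dnajc10 shared an order of the controls, with control 1 highest and control 2 lowest, and Hyou1, Dnajb11, Sdf2l1 and Manf, 4 of the 6 separated members, had the reverse order. The summed fibroblast markers had the first order too, at 25370 CPM in control 1, 9655 CPM in control 2 and 15561 CPM in control 3, next to 20435 to 21656 CPM in the cKO. That order was not particular to fibroblasts, since the summed macrophage, mast cell, cartilage, endothelial and neutrophil markers had it as well. The summed keratinocyte markers had the reverse order in the controls, at 6532, 15437 and 8865 CPM, as had the summed sebocyte and plasma and B cell markers. Melanocyte, T cell and skeletal muscle sums had neither order. The part of cell composition in these values was not tested, and in whole tissue fewer cells of a type and less RNA per cell cannot be told apart.

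The last 2 members are small soluble proteins of the ER. Sdf2l1 is found in complexes with Dnajb11 and BiP and helps to keep clients from aggregating (ENSMUSG00000022769; chromosome 16, 17130138 to 17132383). It was at 6.74, 10.9 and 8.79 CPM in controls 1, 2 and 3 against 24.6, 21.0 and 29.2 CPM in cKO 1, 2 and 3, from 113 to 212 and from 378 to 557 counts. The lowest cKO library lay 1.92-fold above the highest control, and the log2 fold change of 1.50 (95% interval 0.97 to 2.02) was the highest of the 10 members. Its adjusted p was 0.219 in edgeR and 4.4e-06 in DESeq2. Manf encodes a protein that binds the ADP form of BiP and can also be secreted (ENSMUSG00000032575; chromosome 9, 106838312 to 106891979). It was at 44.9, 66.0 and 46.6 CPM in controls 1, 2 and 3 against 90.9, 84.4 and 106 CPM in cKO 1, 2 and 3. Every cKO library was again above every control, with a log2 fold change of 0.84 (95% interval 0.42 to 1.25; adjusted p = 0.498 in edgeR and 0.0278 in DESeq2). Leaving out control 3 or any 1 of the cKO libraries ended the DESeq2 call of Manf (adjusted p = 0.0563 to 0.431). The annotated span of Manf includes Rbm15b on the same strand (log2 fold change 0.19) and part of Dcaf1 on the other strand (0.09), so the assignment of reads there is uncertain.

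**Figure D3:**
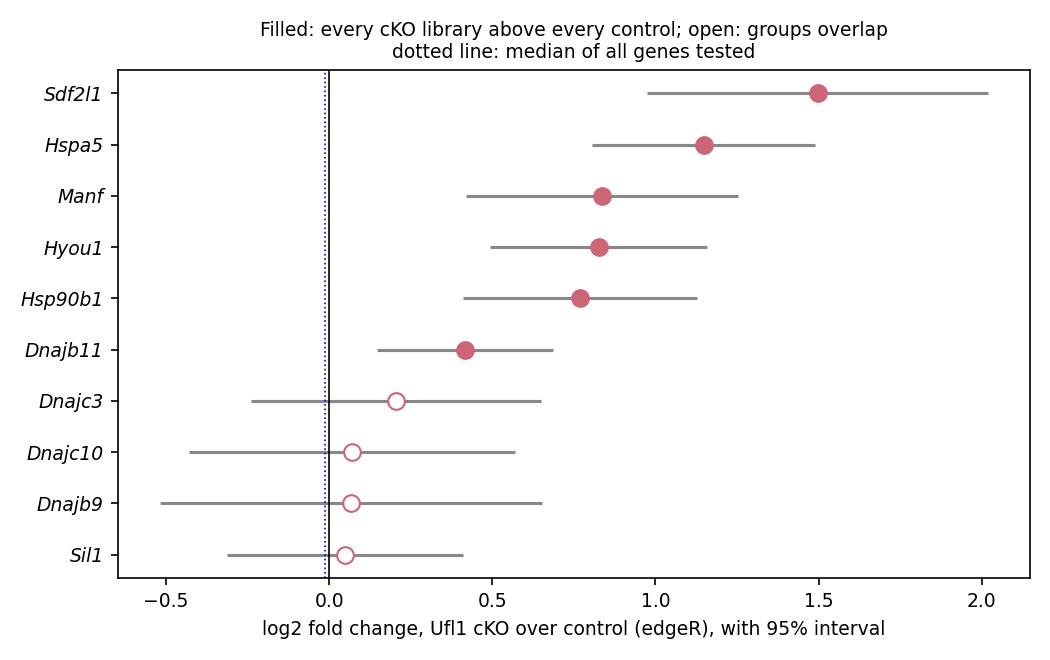
Log2 fold change of each member, cKO over control, with its 95% interval from edgeR; filled points mark members whose cKO libraries all lay above the controls, open points members whose groups overlap, and the dotted line the median of all genes (-0.01). The 6 filled points run from 0.42 to 1.50 with intervals above 0, and the 4 open points run from 0.05 to 0.20 with intervals that include 0.

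Per length, BiP was the most abundant of the 10 in both groups. Mean FPKM was 75.9 ± 4.38 in the controls and 169 ± 8.75 in the cKO for Hspa5, and 43.4 ± 6.77 and 74.0 ± 4.90 for Hsp90b1 (SD, n = 3 each). Mean FPKM of the other members ranged from 7.12 (Hyou1) to 28.7 (Dnajc3) in the controls and from 12.7 (Hyou1) to 33.1 (Dnajc3) in the cKO. Neighbours in the order from Dnajc3 to Dnajb11 (28.7, 23.7, 22.5 and 20.1 FPKM in the controls) differed by less than the larger SD of each pair. Sdf2l1 went from place 6359 to place 2453 among all tested genes and Manf from place 3694 to place 2047. For every member but Sil1 the deposited length equals that of all exons of the gene merged, which can be longer than any 1 mRNA. For Sil1 it was 1695 bases, against 3436 bases in the GENCODE M21 annotation, so its level per length depends on the annotation.

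Summed over the 10 members, controls 1, 2 and 3 held 292, 236 and 251 FPKM against 434, 408 and 445 FPKM for cKO 1, 2 and 3. The cKO sum was thus 1.65 times the control sum (exact two-sided permutation test, p = 0.1, the smallest possible). Hspa5 made up 54.8% of the difference in this sum, Hsp90b1 18.1%, Sdf2l1 8.56% and Manf 6.90%. The share of Hspa5 in the sum was 27.6% to 30.6% in the controls and 39.0% to 39.6% in the cKO.

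The proportion of each co-chaperone to BiP was described by its FPKM per FPKM of Hspa5, which does not depend on library size. For 6 of the 9 other members this ratio was lower in every cKO library than in any control, and the same held for 83.7% of all other genes tested, because the divisor Hspa5 was itself higher. The ratio in the cKO was in the median 0.602 of the control over the 9 members and 0.453 over the 17242 other genes with no 0 in any library. The lower ratios are therefore nothing particular to the co-chaperones, and their values are given as a description. Sil1 per BiP went from 0.206 ± 0.0144 to 0.0959 ± 0.00734, Dnajc10 per BiP from 0.310 ± 0.0770 to 0.149 ± 0.0223 and Dnajb9 per BiP from 0.293 ± 0.1004 to 0.140 ± 0.00738 (SD, n = 3 each). These 3 ratios in the cKO were 0.466, 0.487 and 0.497 of the control. For Dnajc3, Dnajb11 and Hsp90b1 they were 0.532, 0.602 and 0.773 of the control. Dnajb11, although higher in the cKO, was thus lower relative to BiP, at 0.233, 0.289 and 0.278 in controls 1, 2 and 3 against 0.167, 0.161 and 0.151 in cKO 1 to 3. The exact two-sided permutation test gave p = 0.1 for each of the 6, the smallest that 3 against 3 allow, and an adjusted p of 0.15 over the 9 ratios.

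Hyou1, Manf and Sdf2l1 overlapped between the groups when set against BiP. Their ratios in the cKO were 0.806, 0.814 and 1.29 of the control (exact permutation p = 0.3, 0.2 and 0.3; adjusted p = 0.3, 0.257 and 0.3). Control 1 was the lowest control in each of these 3, and without it the ratios of Hyou1 and Manf were also lower in every cKO library. The 4 J-domain members summed to 118, 73.3 and 94.1 FPKM in controls 1, 2 and 3 against 108, 111 and 107 FPKM in cKO 1, 2 and 3. Their sum therefore overlapped between the groups (exact permutation p = 0.4), while their sum per Hspa5 was 1.24 ± 0.223 in the controls and 0.645 ± 0.0468 in the cKO (SD, n = 3 each; exact permutation p = 0.1).

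**Figure D4:**
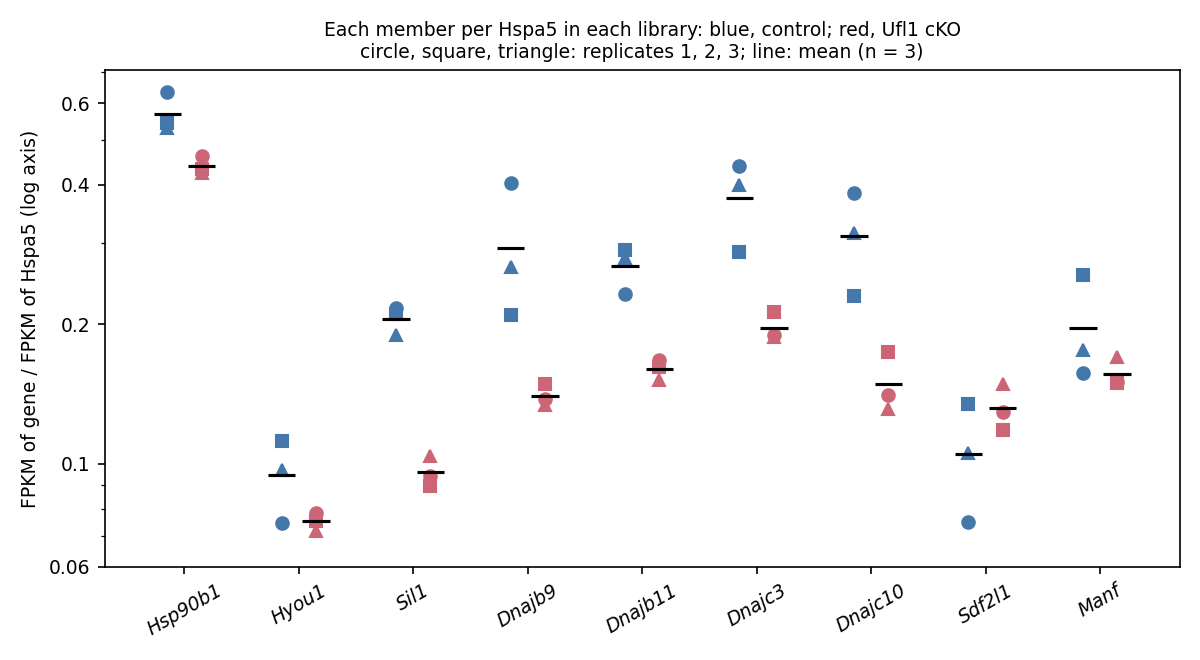
FPKM of each of the other 9 members divided by the FPKM of Hspa5, on a log axis, in the 3 control (blue) and 3 cKO (red) libraries; lines are means. The red points lie below all blue points for Hsp90b1, Sil1, Dnajb9, Dnajb11, Dnajc3 and Dnajc10 and overlap with them for Hyou1, Sdf2l1 and Manf.

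Other genes of ER folding were set beside the 10 members. The counts of separated genes in this and the following lists are to be read next to 5.73% of all genes upward and 4.81% downward. Of 14 other cofactors of BiP and GRP94, 2 had every cKO library above every control (Creld2 and Cnpy4) and 0 had every one below. Creld2, a disulfide isomerase-like protein that is known as an ER stress gene, was at 15.4, 27.7 and 21.2 CPM in controls 1, 2 and 3 against 36.1, 32.9 and 38.4 CPM in cKO 1, 2 and 3, a log2 fold change of 0.74 (SE 0.22). The log2 fold change was 0.33 (SE 0.16) for Cnpy4, 0.38 (SE 0.21) for Hspa13, which has an HSP70 ATPase domain, and 0.27 (SE 0.21) for the J-protein Dnajc25. The list had a median of 0.09, with 0 genes called by edgeR or DESeq2 and, before adjustment, 1 with p under 0.05 in edgeR (Creld2).

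Disulfide isomerases and oxidases were the list nearest to the members. Of 10 tested, 7 had every cKO library above every control, the median log2 fold change was 0.41, and 2 were called higher by DESeq2 (P4hb and Pdia6). Log2 fold changes were 0.81 (SE 0.13) for Pdia6, 0.79 (SE 0.16) for P4hb, 0.62 (SE 0.13) for Pdia4 and 0.56 (SE 0.18) for Pdia3, all of which form or rearrange disulfide bonds. In the glycoprotein folding cycle 5 of 7 genes were separated upward with a median of 0.21. Calr, the lumenal lectin calreticulin, was at 0.72 (SE 0.15) and was called by DESeq2 (adjusted p = 0.00336), and its membrane partner Canx was at 0.42 (SE 0.14). Uggt1, the glucosyltransferase that returns unfolded glycoproteins to the cycle, was at 0.38 (SE 0.16), and the glucosidase subunit Ganab at 0.21 (SE 0.13).

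For ER-associated degradation 5 of 12 genes were separated upward, with a median of 0.21. Derl3, a channel component for export from the ER, was at 2.39 (SE 0.42) from 0.602 to 3.21 mean CPM and was called by DESeq2, and the mannosidase-like proteins Edem1 and Edem2 were at 0.54 (SE 0.13) and 0.49 (SE 0.16). Vimp (in the table as Selenos) was at 0.22 (SE 0.12). Of 13 sensors and transcription factors of the unfolded protein response 2 were separated upward, Xbp1 at 0.33 (SE 0.13) and Ddit3, which encodes CHOP, at 0.19 (SE 0.15). The list had a median of 0.19, with Atf6 at 0.28 (SE 0.15), its homolog Atf6b at 0.29 (SE 0.16) and Atf4 at 0.28 (SE 0.17). Gene-level counts do not tell the spliced from the unspliced form of Xbp1. In these 4 lists 0 genes were separated downward and 0 passed edgeR over all genes, and before adjustment 5, 3, 3 and 1 were higher and 0 lower. DESeq2 called 2, 1, 1 and 0 of them.

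Chaperones outside the ER served as a comparison. Hspa8, the constitutive cytosolic HSP70 and a relative of BiP, was at 631 CPM in the controls and 723 CPM in the cKO with overlapping groups (log2 fold change 0.20, SE 0.22), and the mitochondrial HSP70 gene Hspa9 was at -0.01 (SE 0.14). The relatives of GRP94 were at -0.12 (SE 0.16) for Hsp90aa1, 0.07 (SE 0.16) for Hsp90ab1, both cytosolic, and 0.01 (SE 0.14) for the mitochondrial Trap1. Hsph1, a cytosolic relative of Hyou1, was at 0.10 (SE 0.20). Within the ER, the paralogs Sdf2 (0.04, SE 0.14) and Cdnf (-0.15, SE 0.26) overlapped between the groups, while Sdf2l1 and Manf did not.

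Of 19 genes of the cytosolic system 1 was separated upward, the small heat shock gene Hspb1 (0.46, SE 0.17), and 2 downward, the J-protein genes Dnajb4 (-0.25, SE 0.12) and Dnaja1 (-0.20, SE 0.12). Hspbp1 was at -0.12 (SE 0.14). The median of this list was -0.02, and that of 8 mitochondrial chaperones and proteases was 0.01. No mitochondrial gene was separated in either direction, with Grpel1 at 0.19 (SE 0.13), Lonp1 at -0.20 (SE 0.19), Clpp at 0.11 (SE 0.20) and Hspd1 at 0.05 (SE 0.14). In these 2 lists edgeR and DESeq2 called 0 genes, and before adjustment 1 (Hspb1) and 0 were higher and 0 lower in edgeR. The contrast between ER and other chaperones was described and not tested.

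**Figure D5:**
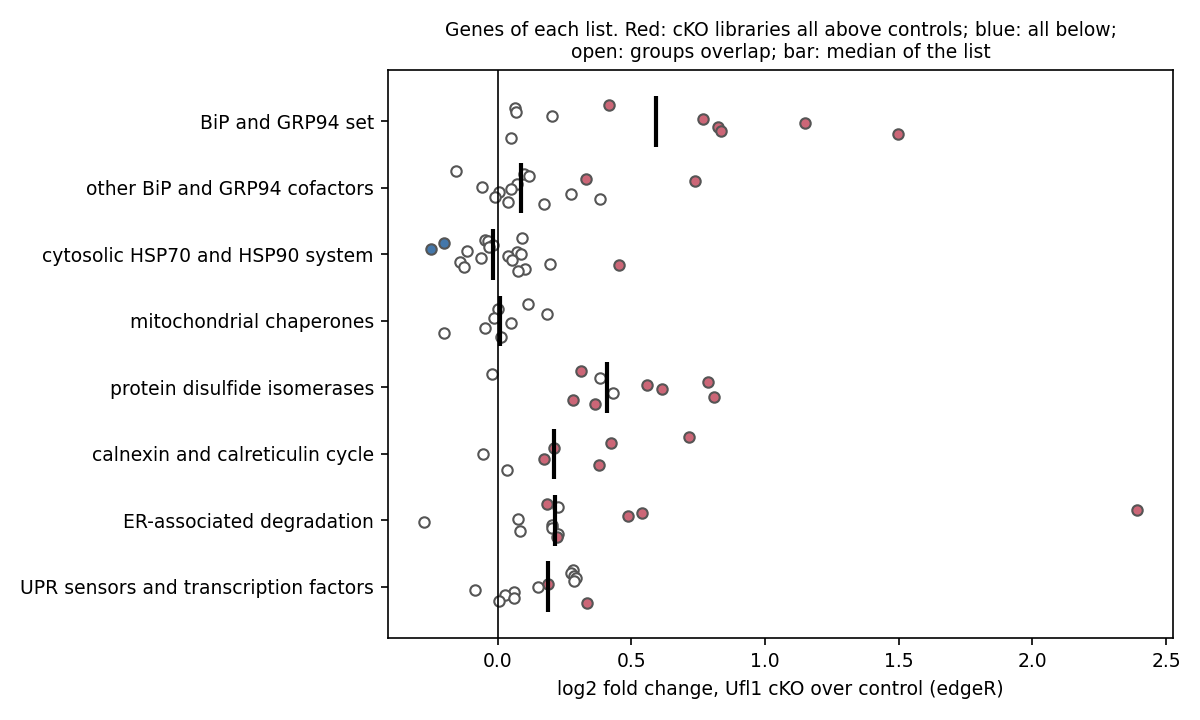
Log2 fold changes (edgeR, cKO over control) of the genes of 8 lists, with red points for genes whose cKO libraries all lay above the controls, blue points for all below, open points for overlapping groups and a bar at the median of each list. The medians are 0.59 for the BiP and GRP94 set, 0.41 for disulfide isomerases, and -0.02 and 0.01 for cytosolic and mitochondrial chaperones.

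The genes most like Hspa5 across the 6 libraries were found by the root mean square difference of log2 CPM, each gene relative to its own mean, over 11032 other genes with a mean of at least 10 CPM. Nucb2, which encodes the calcium-binding protein nucleobindin 2, was nearest (0.13), followed by P4hb (0.19) and Pdia6 (0.20). Hsp90b1 (0.21) and Hyou1 (0.24) took places 4 and 5. The next were Akr1c18 (0.24), Calr (0.24), Gm45855 (0.24), Sec61g (0.25), a subunit of the ER translocon, and Ces2f (0.25). Nucb2 was at 44.6, 36.1 and 39.0 CPM in controls 1, 2 and 3 against 74.5, 69.8 and 79.1 CPM in cKO 1, 2 and 3. Of the other members Manf took place 14, Sdf2l1 place 47 and Dnajb11 place 167, whereas Dnajc3, Sil1, Dnajc10 and Dnajb9 lay between places 1127 and 3930.

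Markers of other cell types were read beside these values. All 7 melanocyte markers were higher in every cKO library than in any control, with summed levels of 43.2 to 60.3 CPM in the controls and 168 to 255 CPM in the cKO. Of the 10 markers of plasma and B cells, cells with a large ER, 5 passed the filter on low counts and 0 were separated. Their sum was 294 to 353 CPM in the controls and 342 to 404 CPM in the cKO, nearly all of it Sdc1, which keratinocytes also express, and Ighm. The antibody chain gene Jchain had 2 to 9 counts in the controls and 1 to 11 in the cKO, and Mzb1 had 6 to 12 and 4 to 10. Neutrophil markers summed to 7.42 to 79.9 CPM in the controls and to 416, 43.5 and 68.8 CPM in cKO 1 to 3. Of the 7 listed, 5 passed the filter on low counts, and their directions were mixed. For 1 of them every cKO library was above every control, and for 1, Mpo, every cKO library was below. Mpo had 23, 16 and 26 counts in controls 1, 2 and 3 against 3, 2 and 0 in cKO 1, 2 and 3. The part of melanocytes and of the other cell types in the chaperone values was not tested. None of the 7 keratinocyte, 10 plasma and B cell or 7 melanocyte markers was at 0 in all libraries.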

How the data were processed

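RNA was extracted with TRIzol and libraries were made with the NEBNext Ultra kit, per the labels' protocols. The submitters' processing notes name HISAT2, HTSeq and build mm10, and whether HTSeq used strand is not stated there. Each library has raw counts and FPKM as deposited, per the file headers. Each FPKM equals count over gene length and 1 effective library size (97.6% to 104.4% of the total). The authors' group means of normalized counts (a signal value), log2 fold changes and p-values, raw and adjusted, are in the same deposited table. The test behind the latter is not named, but for the members these values are nearly identical to those of DESeq2 here.

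Genes passing filterByExpr entered, after TMM scaling, the quasi-likelihood test in edgeR 4.0.16 (R 4.3.3, robust, no covariates, all 6 libraries). SE is the log2 fold change over the root of F, and 95% intervals use its degrees of freedom. DESeq2 1.42.0 ran on all genes with at least 1 count and limma 3.58.1 on voom or log2 FPKM values (pseudocount 1 or 0.1, mean FPKM at least 0.5). The edgeR and DESeq2 scripts were tested on simulated data. Groups came from the library titles. All pairs of libraries differed beyond sampling noise (chi-square per degree of freedom at least 18.1). Tested genes held over 99.8% of each library's counts, and every row named a gene.

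The members, lists and tests were chosen with earlier results of these data known. Named genes were the 10 members, Ufl1, up to 4 genes per other list with the smallest p, the 8 genes most like Hspa5 (log2 CPM, prior count 2) and fixed paralogs. Ddit3, Krt15 and Mpo were named after their values were seen, and the DESeq2 runs without a library and with the replicate number were added after seeing the data. Protein sequences of the paralogs were not used here. Alternatives are given in the closing section.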

Additional observations from a re-analysis of the deposited data

How the results depend on the processing

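Across 17 alternatives the log2 fold changes of the 6 separated members stayed positive, at 1.12 to 1.19 for Hspa5, 1.33 to 1.68 for Sdf2l1, 0.73 to 1.03 for Manf, 0.71 to 0.93 for Hyou1, 0.71 to 0.90 for Hsp90b1 and 0.36 to 0.45 for Dnajb11. Members called numbered 0 in edgeR, 2 with no filter beyond 1 count (Hspa5 and Sdf2l1), 5 in DESeq2 and 5 in limma-voom with quality weights. Dropping a library gave 0 in edgeR, and 2 to 5 in DESeq2. Genes called higher and lower numbered 18 and 7 without the filter, 58 and 21 in DESeq2, 19 and 7 with quality weights, 0 and 0 in limma-voom and in both FPKM fits (585 and 338 at an unadjusted p under 0.05 in edgeR), and 0 to 2 and 0 to 2 without a library. The cause was not tested. Fold changes with a reversed sign were Dnajb9 at -0.15 and Dnajc10 at -0.13 without control 2, Dnajb9 at -0.02 (-0.0185) and Sil1 at -0.02 (-0.0191) without control 3, Dnajc10 at -0.01 without cKO 2 and Sil1 at -0.0453 without cKO 3. At the other end of the leave-one-out range these were 0.423 (Dnajb9) and 0.3004 (Dnajc10) without control 1 and 0.132 (Sil1) without cKO 2.

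Libraries share replicate numbers, but of the same-numbered pairs only the first deviated together (r = 0.23, -0.06 and -0.02 across genes), and cKO 2 and cKO 3 each correlated best with a control of another number. With the replicate block edgeR called 10 genes higher and 2 lower and 0 members, and DESeq2 4 members, without Manf (adjusted p = 0.0703). The share of all genes that DESeq2 called with the block is not given here. The replicate block changed the side of the threshold for no member in edgeR. Without a library, 6 to 8 ratios to Hspa5 were lower in every remaining cKO library, and the difference in summed FPKM was 157 to 185. With all libraries the ratio was lower for 83.7% of all other genes too, so this count is nothing particular to the members. That share is not given here for the runs without a library. Every member had at least 113 counts in each library, the fewest in Sdf2l1.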

Other observations

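The search for the ERSE was extended to all genes with a promoter window outside chromosome 18. It occurred in windows of 37 genes, of which 20 were tested, and 8 of these (40%) had every cKO library above every control, next to 5.73% of all genes, and 0 had every one below. These 8 included Hspa5 and Hsp90b1. The other 6 were Alg12, a mannosyltransferase of the glycan precursor (log2 fold change 0.53, SE 0.21), Calr (0.72, SE 0.15), Canx (0.42, SE 0.14), Creld2 (0.74, SE 0.22), Derl3 (2.39, SE 0.42) and Pdia6 (0.81, SE 0.13). DESeq2 called 5 of the 20 higher. The median log2 fold change was 0.25 over the 20 and 0.225 over the 17 that were not among the 10 chaperone members. Several of these genes also belong to the ER lists above, so the counts are not separate evidence, and a match of letters is no proof of a binding site. The ERSE gene Dnajc3 overlapped between the groups (0.20, SE 0.19), as did Syvn1, the ubiquitin ligase of ER-associated degradation (0.23, SE 0.17), while Acacb, a carboxylase of fatty acid metabolism, was at -0.64 (SE 0.28).

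ERSE-II occurred in windows of 12 genes, of which 9 were tested and 2 were separated upward, Dnajb11 and Krtcap2, a subunit of the oligosaccharyltransferase (0.53, SE 0.16). Without the member Dnajb11 this was 1 of 8, with a median log2 fold change of 0.04, next to 5.73% of all genes separated upward. So few genes do not set the motif apart from that share. Herpud1, a degradation factor with an ERSE-II, was at 0.20 (SE 0.15) with overlapping groups. The UPRE core occurred in windows of 601 genes. Of the 375 tested, 41 (10.9%) were separated upward and 17 downward, next to 5.73% and 4.81% of all genes, with a median of 0.00. The shares of all genes include genes without a promoter window. The share among genes with a window was not computed, so for each motif the bases of comparison differ. Genes named here beyond the lists were chosen after their values were seen.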
